A study of Saccharomyces kudriavzevii and Saccharomyces cerevisiae and Kluyveromyces marxianus with 12 samples.

Results

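The data described here are the heat shock experiment on *Saccharomyces kudriavzevii* FM1389, a cold-adapted yeast closely related to baker's yeast. The experiment holds 4 of the 12 poly(A) RNA sequencing libraries of a series on 3 yeast species, chosen by the strain and the treatment temperature on their labels. They are 2 biological replicates at 31 °C, the heat shock, and 2 at 24 °C, the control. Every gene of the count tables was taken, 5549 of the 16518 genes counted over the 3 species, and 5490 of them had enough counts to be tested. Both groups grew in YPD medium with dextrose to early log phase and were then held at their temperature for 8 min before freezing. The labels' growth text gives 34 °C for this strain, which is above the heat shock itself; the sample titles and the study's text give 24 °C as growth temperature, which is used here. A different treatment time also occurs in the study's own text, and the 8 min are those of the labels and methods. The comparison asks which transcripts differed when the cells were held at what the labels name as the maximum heat shock temperature of this species. The strain is 1 line, so the values describe FM1389 rather than the species at large. The study lists it as mating type α with *HO* replaced by a kanMX cassette and *URA3* and *HIS3* deleted, in both groups alike. *HO* and *HIS3* had 0 counts in all 4 libraries and *URA3* had 1.58 and 2.71 CPM after heat shock against 4.02 and 4.08 CPM in the control, whereas the mating type markers went against the listed type: the a-cell gene *STE2* was high and the α-cell genes *MF(ALPHA)1* and *STE3* were low in all 4 libraries, with values given further on.

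The libraries held 22201483 to 28644781 reads on genes, with 4.01% to 4.77% of reads not assigned to a gene, and 22 to 28 genes were without a read in a library. Values are given as CPM, the counts divided by library size in units of 1e+06 reads after scaling by the trimmed mean of M values. Replicate 1 is given before replicate 2. Differences are log2 fold changes of heat shock over control, written with a standard error (SE). This SE was derived from the test, as the absolute log2 fold change divided by the square root of edgeR's quasi-likelihood F statistic. It is thus an approximation that rests on that test. A gene was called higher or lower where edgeR's quasi-likelihood test gave an adjusted p under 0.05. As bulk RNA, the values cannot tell a change in every cell from a change in some of the cells. CPM are not divided by gene length, so they compare 1 gene between libraries and not one gene with another. The files give locus names only; gene names were assigned by gene order and length, 4935 genes in all, and the remaining 614 carry no name. The labelled conditions were checked by the heat shock genes *SSA4*, *HSP26* and *HSP42*, each of which was more than 2 orders of magnitude higher in both heat shock libraries than in either control library.

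Budding yeast answers a sudden rise in temperature with a programme that is well known from *S. cerevisiae*. The transcription factor Hsf1 drives genes of chaperones, the proteins that bind and refold unfolded proteins, while Msn2 and Msn4 drive a broader stress set that includes trehalose and glycogen metabolism and antioxidants. At the same time the genes for making ribosomes, which take up much of the transcription of a growing cell, are shut down.

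The response comprised somewhat more falls than rises. Of the 5490 genes tested, 575 were higher (10.5%) and 717 were lower (13.1%), and the median over all genes was -0.04 on the log2 scale. The counts of genes called in each list below are to be set beside these shares. Among the genes called, 530 of the higher and 668 of the lower ones changed at least 2-fold, and 39 and 67 changed at least 16-fold. Heat shock and control libraries did not overlap in CPM for any of the genes called, but the same was true of 65.6% of all genes tested, so that a lack of overlap was not rare. With the totals of the libraries in place of the scaling, 275 genes were higher and 641 lower, at a median of -0.31. Removal of the first or the second heat shock library left 247 and 308 genes higher, and removal of the second control library gave 1153.

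**Figure D1:**
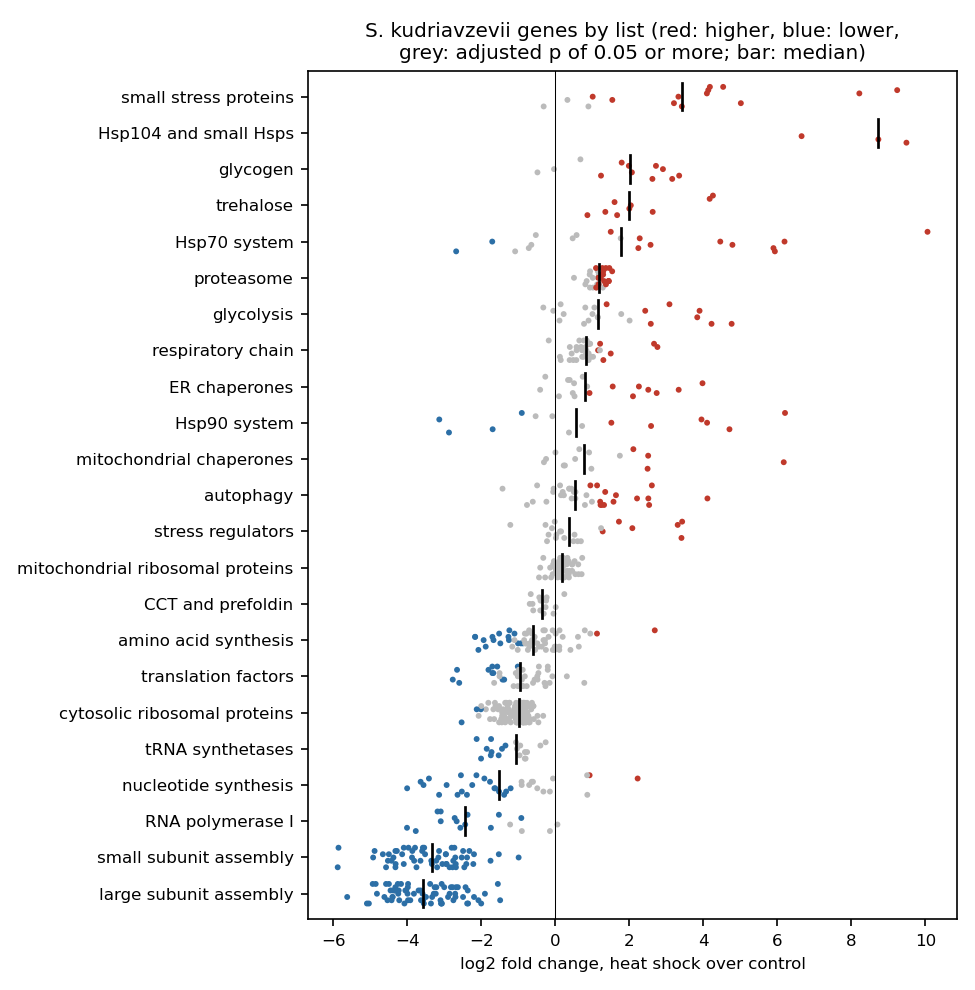
Log2 fold change of heat shock over control for the genes of 23 lists, 1 point per gene, coloured by call (red higher, blue lower, grey not called) with the list's median as a black bar. All points of both ribosome assembly lists are blue, at medians of -3.34 and -3.58, and the 3 points of Hsp104 and the small Hsps lie between 6.65 and 9.49.

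The cytosolic Hsp70 system gave the largest single rise. Hsp70 proteins bind exposed stretches of unfolded chains, J-domain proteins deliver substrates to them, and nucleotide exchange factors release the bound nucleotide. *SSA4*, the Hsp70 that is scarce in unstressed cells, had 19430.2 and 12649 CPM after heat shock against 13.8 and 16.4 CPM in the control, the largest log2 fold change of all genes (log2 fold change 10.05 ± 0.92, edgeR adjusted p = 0.000458). Its paralogs *SSA1* and *SSA3* followed at 5.93 ± 0.78 and 5.89 ± 0.55, with 1448 and 1328 CPM after heat shock against 28.97 and 17.7 CPM in the control for *SSA3*. *SSA2*, the constitutive form, was already abundant: it had 16014 and 14533 CPM after heat shock against 2981 and 3304 CPM in the control, a rise of 2.28 ± 0.65 (edgeR adjusted p = 0.0377). Only reads with a unique place in the genome were counted and *SSA1* and *SSA2* are near-identical in sequence, so the split between these 2 genes is uncertain.

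Of the 19 genes of the Hsp70 system 10 were higher, the 4 Hsp70 genes *SSA1* to *SSA4* and 6 of their partners, and 2 partners were lower. The exchange factor *SSE2* had 6237 and 4723 CPM after heat shock against 80.9 and 68.9 CPM in the control (log2 fold change 6.19 ± 0.66, edgeR adjusted p = 0.00062). *FES1*, another exchange factor, rose by 4.79 ± 0.53, and the J-domain proteins *SIS1* and *YDJ1* by 4.46 ± 0.58 and 2.57 ± 0.54. *SSE1*, the major exchange factor, had 4419 and 3689 CPM after heat shock against 973 and 1408 CPM in the control, but its adjusted p of 0.0502 in edgeR was just over the threshold. *JJJ1* and *JJJ3* went the other way. The first encodes a J-domain protein that works in large ribosomal subunit maturation and had 7.62 and 8.14 CPM after heat shock against 55.4 and 45.4 CPM in the control (-2.68 ± 0.28); the second, which acts in diphthamide synthesis, changed by -1.70 ± 0.37. Thus the 2 members that fell were J-domain proteins with specialised tasks.

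The protein disaggregase and the small heat shock proteins showed the steepest induction of any list, with all 3 genes called. *HSP42*, a small Hsp that gathers misfolded proteins into deposits, had 5459 and 4699 CPM after heat shock against 9.95 and 14.03 CPM in the control (log2 fold change 8.73 ± 0.73, edgeR adjusted p = 0.000458). *HSP26* had 14223 and 5309.8 CPM after heat shock against 11.997 and 15.3 CPM in the control (log2 fold change 9.49 ± 0.96, edgeR adjusted p = 0.000544), so that its replicates differed by 2.68-fold while both lay far above the control. *HSP104*, the ATPase that pulls proteins out of aggregates, had 7871 and 5672 CPM after heat shock against 76.1 and 58.5 CPM in the control (log2 fold change 6.65 ± 0.70, edgeR adjusted p = 0.00062). *BTN2*, a sorting factor that takes misfolded proteins to such deposits, had 5462 and 5095 CPM after heat shock against 21.02 and 24.3 CPM in the control and was the sixth largest rise of all named genes at 7.87 ± 0.69. None of these genes was above 100 CPM in a control library.

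**Figure D2:**
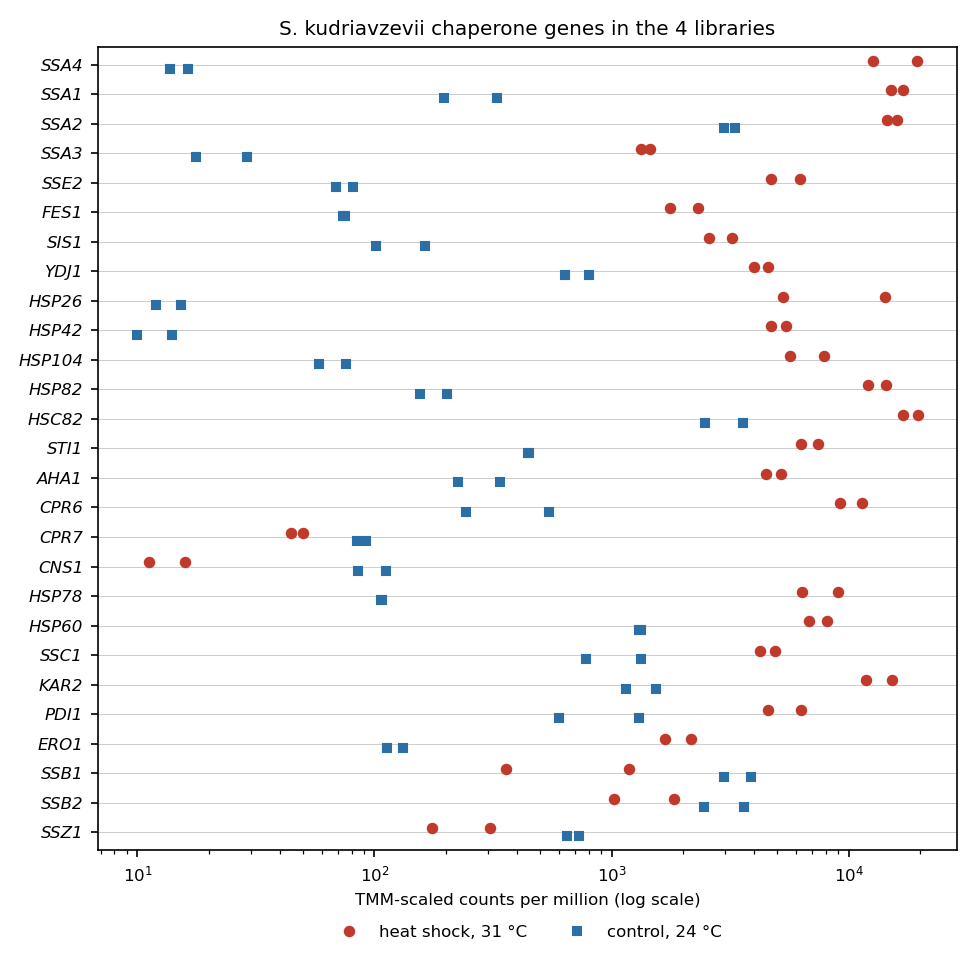
CPM of 27 chaperone genes in each library on a log axis, with heat shock as red circles above control as blue squares. The heat shock circles lie right of the control squares for the inducible genes, by about 3 orders of magnitude for *SSA4*, and left of them for *CPR7*, *CNS1*, *SSB1*, *SSB2* and *SSZ1*.

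Hsp90, which completes the folding of kinases and other clients, rose in both forms, and of its cochaperones 4 rose and 4 fell. The inducible form *HSP82* had 14362 and 12040.1 CPM after heat shock against 156 and 202 CPM in the control (log2 fold change 6.21 ± 0.75, edgeR adjusted p = 0.000957), and the constitutive form *HSC82* had 19625 and 16909.6 CPM after heat shock against 2475 and 3604 CPM in the control (log2 fold change 2.59 ± 0.68, edgeR adjusted p = 0.029); as a near-identical pair they may share reads. *CPR6*, a proline isomerase, rose by 4.71 ± 0.75. *AHA1*, which stimulates the ATPase, rose by 4.10 ± 0.60, *STI1*, which joins Hsp90 to Hsp70, by 3.95 ± 0.61, and *HCH1*, a relative of *AHA1*, by 1.51 ± 0.43. In contrast *CNS1*, an essential cochaperone, had 11.1 and 15.8 CPM after heat shock against 85.3 and 112 CPM in the control (log2 fold change -2.87 ± 0.32, edgeR adjusted p = 0.000728). The phosphatase *PPT1* had 7.82 and 21.1 CPM after heat shock against 128 and 126 CPM in the control (-3.13 ± 0.47), and *TAH1*, part of a complex that assembles small nucleolar ribonucleoproteins, was lower at -1.69 ± 0.35. *CPR7*, the paralog of *CPR6*, fell slightly (-0.90 ± 0.26, edgeR adjusted p = 0.0416). In all 6 of 14 genes were higher and 4 lower.

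Chaperones of the organelles rose in part. In mitochondria 4 of 14 genes were higher and none lower, led by *HSP78*, the mitochondrial relative of Hsp104, with 9032 and 6393 CPM after heat shock against 106 and 108 CPM in the control (log2 fold change 6.17 ± 0.69, edgeR adjusted p = 0.000729). The chaperonin *HSP60* rose by 2.49 ± 0.59, the Hsp70 *SSC1* by 2.11 ± 0.57 and its partner *MDJ1* by 2.51 ± 0.47. *HSP10*, which caps Hsp60, had 1684 and 1683 CPM after heat shock against 289.9 and 715 CPM in the control and was not called (edgeR adjusted p = 0.0584). In the endoplasmic reticulum 8 of 18 genes were higher and none lower. *KAR2*, the Hsp70 of that compartment, had 15267 and 11856 CPM after heat shock against 1148 and 1543 CPM in the control (log2 fold change 3.33 ± 0.67, edgeR adjusted p = 0.0094), *ERO1*, the oxidase that feeds disulfide formation, rose by 3.98 ± 0.51, and *PDI1*, the disulfide isomerase, by 2.51 ± 0.64. *DER1*, a channel component in the export of misfolded proteins, had 197 and 155 CPM after heat shock against 19.8 and 33.03 CPM in the control, a rise of 2.74 ± 0.35.

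Chaperones that serve newly made proteins did not rise. None of the 14 genes of the cytosolic chaperonin CCT and prefoldin was called in edgeR or in DESeq2, and 0 had an unadjusted p under 0.05 in edgeR; their median was -0.35, with 12 below 0. Of the 7 ribosome-associated chaperones *SSZ1* was called lower, with 175 and 308 CPM after heat shock against 649.6 and 729 CPM in the control (log2 fold change -1.51 ± 0.43, edgeR adjusted p = 0.0375). *SSB1*, an Hsp70 that binds chains as they leave the ribosome, had 359.6 and 1181 CPM after heat shock against 2993 and 3866 CPM in the control, and its replicates after heat shock differed over 3-fold; it was not called (edgeR adjusted p = 0.0542). *SSB2* had 1028 and 1841 CPM after heat shock against 2456 and 3626 CPM in the control and was not called either.

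The upstream regions of these genes are shown for their *S. cerevisiae* orthologs, because the genome of the *S. kudriavzevii* strain was not used here; what follows describes *S. cerevisiae* sequence from the R64 assembly (RefSeq) and says nothing on which factor acts. In the 500 bases before the start codon, searched on both strands, the heat shock element was taken as the units GAA, TTC and GAA with 2 free bases between neighbours, a form that Hsf1 is known to bind. It was found for 6 of the 15 genes with the largest rises and for none of the 15 with the largest falls. Among genes called higher it was found for 22 of 488 (4.51%) and among those called lower for 6 of 667 (0.900%), against 1.48% of the 6002 *S. cerevisiae* promoters. The 4 genes with the largest rises that hold it are shown with the element in capitals, 5′ to 3′ on the gene's own strand.
HSP42: aagttctgGAAGGTTCGCGAAttgagaac
BTN2: tttttctaGAAAGTTCCGGAAaattgcga
HSP104: tttttccaGAATTTTCTAGAAgggttatt
HSP78: attttccaGAATGTTCTAGAAgtgttctt
The printed windows lay at chrIV:806375-806403 (plus strand) for *HSP42*, chrVII:772107-772135 (plus strand) for *BTN2*, chrXII:88318-88346 (plus strand) for *HSP104* and chrIV:974465-974493 (minus strand) for *HSP78*, with the element between 225 and 326 bases before the start codon. *SSA4* and *HSP26*, the genes with the largest rises of all, had no such match, and no match says only that these letters are not in the window.

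Quality control genes and the proteasome, which degrades proteins marked with ubiquitin, rose more modestly. Of 16 quality control genes 7 were higher and none lower. *RPN4*, the activator of proteasome genes, had 910.2 and 803 CPM after heat shock against 84.005 and 77.3 CPM in the control (log2 fold change 3.41 ± 0.41, edgeR adjusted p = 0.000893). *NPL4*, a cofactor of the Cdc48 unfoldase, rose by 2.01 ± 0.30, and *DDI1*, a shuttle and protease for ubiquitinated proteins, by 2.01 ± 0.31. All 33 proteasome subunit genes had a positive log2 fold change, from 0.51 to 1.54 with a median of 1.19, and 19 of them were called higher. The largest change was that of the lid subunit *RPN12* with 529 and 466 CPM after heat shock against 120.0 and 223 CPM in the control (log2 fold change 1.54 ± 0.41, edgeR adjusted p = 0.0295); *RPN9*, *RPN6* and the core subunit *PRE8* had 1.46, 1.45 and 1.44. These calls depended on the setting: edgeR called none of the 33 when either heat shock library was left out and 5 with library totals, whereas DESeq2 called 31.

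The Rpn4 element GGTGGCAAA, searched in the same way, was found before 27 of the 33 *S. cerevisiae* proteasome genes and before 1.65% of all promoters. The 3 subunit genes with the largest rises are shown with the element in capitals.
RPN12: acacattaTTTGCCACCcattgaaa
RPN9: tttcatccGGTGGCAAAagtaagaa
RPN6: gttccaagGGTGGCAAAtgttggta
The printed windows lay at chrVI:252400-252424 (plus strand), chrIV:1322088-1322112 (plus strand) and chrIV:286792-286816 (minus strand), with each element within 104 bases of the start codon, and the *RPN12* element reads as its reverse complement.

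Small stress proteins of the membrane and cytosol were nearly all higher, 12 of 15, with a median of 3.42. *EGO4* had 2012 and 756 CPM after heat shock against 1.69 and 2.94 CPM in the control (log2 fold change 9.24 ± 0.82, edgeR adjusted p = 0.000458) and was hardly expressed in the control. *HSP12*, which stabilises membranes, had 6285 and 954 CPM after heat shock against 8.74 and 15.7 CPM in the control (log2 fold change 8.21 ± 1.13, edgeR adjusted p = 0.00163), and its heat shock replicates differed by 6.59-fold, the most of any gene with at least 100 counts in each library. *MSC1* rose by 5.01 ± 0.47, *TFS1*, an inhibitor of a vacuolar protease, by 4.53 ± 0.51, and *DDR2* by 4.18 ± 0.56. *HSP30*, a negative regulator of the plasma membrane proton pump, had 96.9 and 89.7 CPM after heat shock against 9.13 and 8.29 CPM in the control (3.42 ± 0.28). *TMA10* stayed at 0.729 and 0.993 CPM after heat shock against 0.702 and 1.52 CPM in the control and was not called. The cell wall protein *SPI1* belongs with the large rises too, with 271 and 83.8 CPM after heat shock against 4.33 and 4.12 CPM in the control (log2 fold change 5.39 ± 0.60, edgeR adjusted p = 0.000698).

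A pair of genes outside the lists stood among the 15 largest named rises. *OPI10*, whose human relative carries Hsp70 into the nucleus, had 1129.7 and 899.6 CPM after heat shock against 16.1 and 21.7 CPM in the control (log2 fold change 5.75 ± 0.49, edgeR adjusted p = 0.000458). *PNC1*, the nicotinamidase that removes an inhibitor of the deacetylase Sir2, had 7779 and 4310.0 CPM after heat shock against 77.7 and 186 CPM in the control (log2 fold change 5.52 ± 0.78, edgeR adjusted p = 0.00182). A locus without a name was as high: *SKDZ_10G0710*, named because it falls among the 15 largest rises of all eligible genes, had 209 and 240.5 CPM after heat shock against 5.37 and 3.70 CPM in the control (log2 fold change 5.62 ± 0.36, edgeR adjusted p = 0.000458).

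Genes for storage carbohydrates were higher in all 9 cases for trehalose, with a median of 2.00, and in 9 of 12 for glycogen, genes of synthesis and of breakdown among them. *TSL1*, a subunit of the synthase complex, had 1123 and 1209.5 CPM after heat shock against 58.3 and 71.2 CPM in the control (log2 fold change 4.17 ± 0.46, edgeR adjusted p = 0.000698); the synthase *TPS1* rose by 2.63 ± 0.42, the phosphatase *TPS2* by 2.04 ± 0.41 and *NTH1*, which degrades trehalose, by 2.000 ± 0.32. *PGM2*, which supplies glucose-1-phosphate to both sugars, had 573 and 930.4 CPM after heat shock against 35.8 and 42.7 CPM in the control (4.26 ± 0.45). The glycogen genes that were higher included the branching enzyme *GLC3* (3.16 ± 0.39), the synthase *GSY2* (2.62 ± 0.35), the phosphorylase *GPH1* (2.91 ± 0.38) and the phosphatase subunits *GIP2* (3.35 ± 0.34) and *PIG2* (2.72 ± 0.41). *IGD1*, an inhibitor of glycogen breakdown, had 439.7 and 461 CPM after heat shock against 17.3 and 52.9 CPM in the control and rose by 3.68 ± 0.55. With library totals 5 of the 9 trehalose and 6 of the 12 glycogen genes were called.

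Antioxidant genes rose selectively, 9 of 29 higher and none lower. The cytosolic catalase *CTT1* had 183 and 228 CPM after heat shock against 10.9 and 7.25 CPM in the control (log2 fold change 4.49 ± 0.36, edgeR adjusted p = 0.000458). The glutaredoxins *GRX1* and *GRX2* rose by 2.34 ± 0.41 and 2.28 ± 0.49, and the mitochondrial superoxide dismutase *SOD2* by 1.55 ± 0.36. *AHP1*, a peroxiredoxin, had 11268 and 9163 CPM after heat shock against 1327 and 2503 CPM in the control (log2 fold change 2.42 ± 0.66, edgeR adjusted p = 0.0329). *HOR7*, a small membrane protein gene of the stress response, ranked second among all genes after heat shock on the TPM scale, which corrects for gene length, at 30244.5 and 17652 after heat shock, against 1889 and 2898 in the control.

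Within glycolysis the minor isozymes rose and the major ones named here did not pass the edgeR test. Of 22 genes 8 were higher and none lower in edgeR, and 15 were higher in DESeq2. *TDH1*, the stress form of glyceraldehyde-3-phosphate dehydrogenase, had 1909.9 and 1386 CPM after heat shock against 42.99 and 78.4 CPM in the control (log2 fold change 4.76 ± 0.57, edgeR adjusted p = 0.000928), whereas the main form *TDH3* had 28498 and 25128 CPM after heat shock against 8931 and 15295 CPM in the control and was not called (edgeR adjusted p = 0.292). *HXK1*, the minor hexokinase, had 1347 and 1198 CPM after heat shock against 43.4 and 93.2 CPM in the control (log2 fold change 4.22 ± 0.56, edgeR adjusted p = 0.00133), whereas *HXK2* had 1062 and 1309 CPM after heat shock against 1015 and 1175 CPM in the control (0.11 ± 0.46). Glucokinase *GLK1* rose by 3.84 ± 0.44 and the enolase *ENO1* by 3.90 ± 0.61; *ENO2* had 1.06 ± 0.68 and was not called. The isozymes are similar in sequence, and reads common to a pair were not counted. Of 19 hexose transporters none was higher, against 10.5% of all genes tested, and 3 were lower (15.8%, against 13.1%). The last were the glucose transporters *HXT3*, *HXT2* and *HXT1*, *HXT3* with 35.5 and 84.7 CPM after heat shock against 971 and 1498 CPM in the control (log2 fold change -4.36 ± 0.61, edgeR adjusted p = 0.00172).

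Other stress metabolism changed in single genes. In glycerol synthesis *GPD1* and *GPP2*, the dehydrogenase and the phosphatase of the pathway, rose by 2.09 ± 0.40 and 2.13 ± 0.46, and *GUT2*, which breaks glycerol phosphate down, by 1.45 ± 0.31, 3 of 15 in all. The mitochondrial aldehyde dehydrogenases moved in opposite directions: *ALD4* had 191 and 131 CPM after heat shock against 34.1 and 27.3 CPM in the control (2.39 ± 0.32) and *ALD5* had 14.7 and 25.7 CPM after heat shock against 160.4 and 134 CPM in the control (-2.86 ± 0.36). In the citric acid cycle 5 of 18 genes were higher, led by the citrate synthase *CIT1* (2.39 ± 0.36). The respiratory chain had 7 of 36 genes higher and none lower (2 without the first heat shock library, 20 without the second control library), with *STF1*, which stabilises the inhibited ATP synthase, at 2.76 ± 0.45 and the minor cytochrome c *CYC7* at 2.67 ± 0.37. Mitochondrial ribosomal protein genes had 0 of 53 called (median 0.18) in edgeR and in DESeq2 and 0 at an unadjusted p under 0.05 in edgeR, though 16 were called higher without the second control library. Of 36 autophagy genes 14 were higher and none lower, and 6, 7 and 6 were higher without the first heat shock library, without the second and with library totals: *ATG8*, the ubiquitin-like protein of the autophagosome, had 96.1 and 72.8 CPM after heat shock against 10.5 and 18.7 CPM in the control (log2 fold change 2.54 ± 0.36, edgeR adjusted p = 0.00185), and *ATG41* had 217 and 164 CPM after heat shock against 7.22 and 14.97 CPM in the control (4.11 ± 0.43).

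Ribosome assembly fell without exception. All 58 genes for small subunit assembly and all 72 for large subunit assembly were lower, with medians of -3.34 and -3.58, against 13.1% of all genes tested. The smallest change in either list was -0.99. *NSR1*, the yeast nucleolin, had 17.8 and 49.5 CPM after heat shock against 1579 and 2375 CPM in the control (log2 fold change -5.88 ± 0.72, edgeR adjusted p = 0.000994), the largest fall of all eligible genes. *MRD1*, an RNA-binding protein of the small subunit processome, had 2.63 and 2.60 CPM after heat shock against 219 and 84.5 CPM in the control (log2 fold change -5.86 ± 0.53, edgeR adjusted p = 0.000458). The snoRNP proteins *NOP1*, the methyltransferase fibrillarin, and *NOP56* were abundant in the control and had smaller changes: *NOP1* had 150.3 and 372 CPM after heat shock against 1565 and 2007 CPM in the control (-2.77 ± 0.59) and *NOP56* changed by -2.53 ± 0.62. Among large subunit factors the helicase *DBP2* had 10.5 and 27.01 CPM after heat shock against 959.6 and 885 CPM in the control (log2 fold change -5.62 ± 0.61, edgeR adjusted p = 0.000641), the GTPase *NOG2* had 7.21 and 8.17 CPM after heat shock against 356 and 149 CPM in the control (-5.04 ± 0.49) and *RRS1*, which brings in the 5S ribonucleoprotein, had 4.34 and 6.23 CPM after heat shock against 172 and 188 CPM in the control (-5.09 ± 0.35). Between 51 and 56 genes of the small subunit list and between 69 and 72 of the large subunit list were called lower with any one library left out.

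The other large falls were mostly of the same kind. *FAF1*, *IMP4* and *ROK1*, factors for the small subunit, had -5.27 ± 0.51, -4.88 ± 0.41 and -4.92 ± 0.44, and *HAS1* and *YTM1*, for the large one, -4.93 ± 0.61 and -4.85 ± 0.42. *LTV1*, which takes part in export of the small subunit, had 2.88 and 9.21 CPM after heat shock against 171 and 171 CPM in the control (-4.82 ± 0.55). *RNT1*, the RNase III that cuts the ribosomal precursor RNA, had 0.811 and 2.71 CPM after heat shock against 86.95 and 74.5 CPM in the control (log2 fold change -5.51 ± 0.54, edgeR adjusted p = 0.000482). *TOD6*, itself a repressor of ribosome assembly genes, had 3.89 and 2.29 CPM after heat shock against 116 and 101 CPM in the control (log2 fold change -5.14 ± 0.38, edgeR adjusted p = 0.000458). Of the remaining 2 genes, *GFD2* had 0.932 and 1.95 CPM after heat shock against 117 and 41.2 CPM in the control (-5.77 ± 0.63), and *RFU1*, an inhibitor of the ubiquitin protease Doa4, had 2.15 and 3.67 CPM after heat shock against 63.8 and 109 CPM in the control (-4.88 ± 0.43).

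A pair of short elements is known upstream of ribosome assembly genes in *S. cerevisiae*, PAC, written GCGATGAG and bound by Dot6 and Tod6, and RRPE, written AAAATTTT, which is its own reverse complement. In the same windows of *S. cerevisiae* sequence PAC was found for 13 of the 15 genes with the largest falls and RRPE for all 15, against 4.83% and 12.4% of all promoters. PAC was found for 29 of 58 small subunit and 40 of 72 large subunit genes, and for 1 of the 128 ribosomal protein genes; RRPE was found for 45, 58 and 17 genes of these lists. The 3 genes with the largest falls that hold PAC are given first, then the 2 other genes with the largest falls for RRPE, with the element in capitals.
NSR1: aagggcagCTCATCGCaagaacga
GFD2: aaaaatttGCGATGAGcatccctc
DBP2: cgccgatgCTCATCGCagaaaatt
MRD1: aaaatgaaAAAATTTTatggaaat
RNT1: agttttacAAAATTTTacatgtgg
These windows lay at chrVII:807828-807851 (minus strand), chrIII:58891-58914 (plus strand), chrXIV:413476-413499 (plus strand), chrXVI:752022-752045 (minus strand) and chrXIII:749881-749904 (minus strand), in the order printed. For *NSR1* and *DBP2* the element reads as its reverse complement. The stress response element AGGGG, the site of Msn2 and Msn4, was found for 12 of the 15 largest rises and 6 of the 15 largest falls, for 58.8% of genes called higher and 23.5% of those called lower, and for 34.1% of all promoters.

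**Figure D3:**
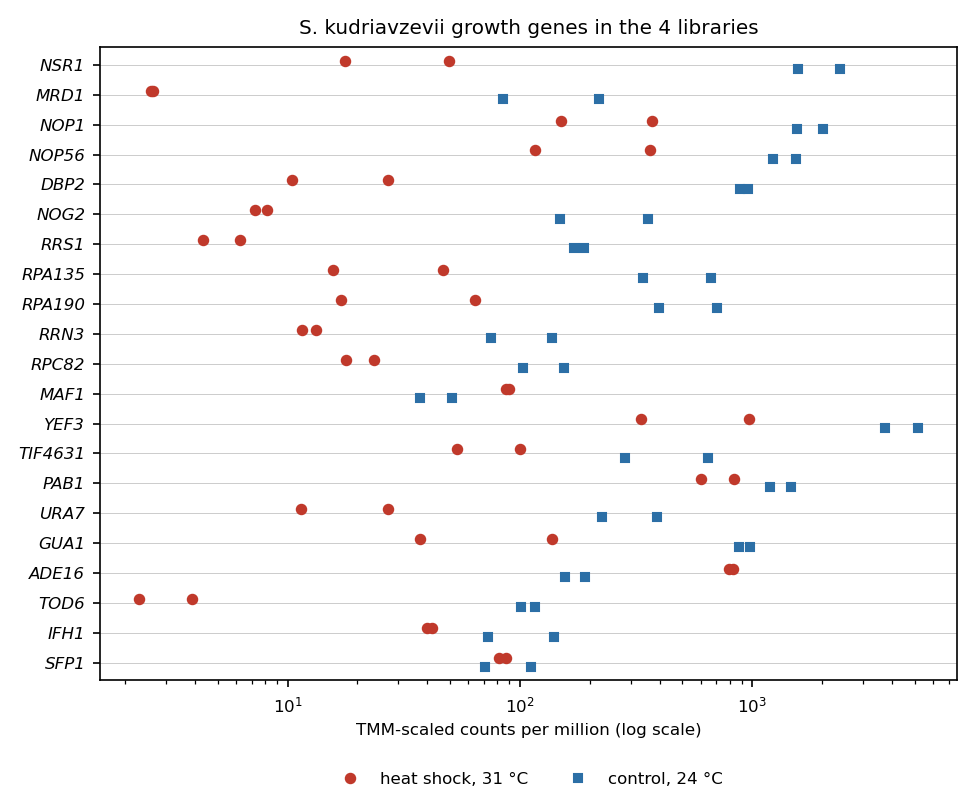
CPM of 21 genes of ribosome production, translation and growth control in each library on a log axis, with heat shock as red circles above control as blue squares. Heat shock circles lie left of the control squares for most genes, right of them for *MAF1* and *ADE16*, and between them for *SFP1*.

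RNA polymerase I, which transcribes the ribosomal RNA, fell together with the assembly factors. Of 17 genes 13 were lower. Its largest subunits *RPA190* and *RPA135* changed by -3.77 ± 0.67 and -4.005 ± 0.62, *RPA135* with 15.6 and 46.8 CPM after heat shock against 664 and 339 CPM in the control, and the initiation factor *RRN3* had 13.3 and 11.5 CPM after heat shock against 137 and 74.9 CPM in the control (log2 fold change -3.09 ± 0.37, edgeR adjusted p = 0.000891). RNA polymerase III, which makes transfer RNA and 5S RNA, had 8 of 19 genes lower, with *RPC82* at -2.64 ± 0.33. The only member higher was *MAF1*, the repressor of that polymerase, with 87.1 and 89.3 CPM after heat shock against 37.2 and 51.2 CPM in the control (log2 fold change 0.997 ± 0.28, edgeR adjusted p = 0.038). Of 12 RNA polymerase II genes 5 were lower, 0 without the first heat shock library and 2 without the second. Of these *RPB5*, *RPO26*, *RPB10* and *RPC10* encode subunits shared with the other polymerases, and *RPB5* had -1.78 ± 0.33.

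Translation genes fell less than ribosome assembly. Among translation factors 11 of 40 were lower, including the elongation factor *YEF3* with 331 and 971 CPM after heat shock against 5166 and 3709.6 CPM in the control (log2 fold change -2.77 ± 0.69, edgeR adjusted p = 0.0231), the recycling factor *RLI1* (-2.65 ± 0.48) and the scaffold *TIF4631* of the cap complex (-2.59 ± 0.51). Among aminoacyl-tRNA synthetases 9 of 19 were lower, with *CRS1* at -2.12 ± 0.45 and *ILS1* at -2.005 ± 0.43; *GUS1* had -0.26 ± 0.39 and was not called. Without the first heat shock library 2 translation factors and no synthetase were called in edgeR. Of 20 genes listed as mRNA-binding or condensing 16 were not called. Lower were 3 (15%, against 13.1% of all genes tested) and 1 was higher. The poly(A)-binding protein *PAB1* had 602 and 837 CPM after heat shock against 1461 and 1187 CPM in the control and was not called (edgeR adjusted p = 0.215). The helicase *DED1* had -0.46 ± 0.44, and *NEW1* and *NRP1* were lower at -2.46 ± 0.42 and -3.31 ± 0.44. *EDC2*, an activator of decapping, was the only one of 19 decapping genes called, with 315 and 371 CPM after heat shock against 31.5 and 61.7 CPM in the control (log2 fold change 2.88 ± 0.41, edgeR adjusted p = 0.00182).

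The cytosolic ribosomal protein genes were lower in sign and mostly not called in the main edgeR fit. All 128 had a negative log2 fold change, with a median of -0.97, but 3 were called in edgeR, against 45 in DESeq2 and 21 at an unadjusted p under 0.05 in edgeR. The size varied with the libraries used. The median was -0.36 without the second control library, -0.55 without the first heat shock library and -1.62 without the second heat shock library. It lay between -2.07 and 0.05 over the 4 pairs of 1 heat shock and 1 control library, which include pairs of unlike replicate number. With a replicate block, which compares libraries of the same replicate number, the median was -0.99 and edgeR called 65 lower. *RPL7B* had 31.7 and 163 CPM after heat shock against 491 and 636 CPM in the control (log2 fold change -2.53 ± 0.70, edgeR adjusted p = 0.0338), *RPS27A* 70.9 and 194 CPM after heat shock against 398 and 754 CPM in the control (-2.12 ± 0.56) and *RPL22B* 38.5 and 130.1 CPM after heat shock against 225 and 454 CPM in the control (-2.01 ± 0.60). The heat shock and control libraries did not overlap in 58 of the 128, a smaller share than the 65.6% of all genes. These genes took 6.39% and 13.3% of the counts in the heat shock libraries and 18.0% and 27.2% in the control libraries, so that replicate 1 was low in both conditions, at median replicate ratios of -1.08 and -1.07 on the log2 scale. Many are pairs of near-identical paralogs whose shared reads were not counted.

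Biosynthesis of nucleotides fell broadly. Of 33 genes 20 were lower and 2 higher. *URA7*, a CTP synthase, had 11.5 and 26.9 CPM after heat shock against 389 and 227 CPM in the control (log2 fold change -4.002 ± 0.51, edgeR adjusted p = 0.00118), and *GUA1*, the GMP synthase, had 37.3 and 137 CPM after heat shock against 874 and 982 CPM in the control (-3.41 ± 0.65). The 2 isozymes for the last steps of purine synthesis moved in opposite directions: *ADE17* had 67.2 and 90.99 CPM after heat shock against 887 and 1081 CPM in the control (log2 fold change -3.64 ± 0.45, edgeR adjusted p = 0.000989), whereas *ADE16* had 829.7 and 794 CPM after heat shock against 191 and 157 CPM in the control (log2 fold change 2.22 ± 0.40, edgeR adjusted p = 0.00549). A similar split was seen for the phosphoribosyl pyrophosphate synthetases, with *PRS1* at -3.56 ± 0.47 and *PRS2* at 0.93 ± 0.26. Amino acid synthesis had 16 of 60 genes lower and 2 higher; *HIS6* and *ILV5* were lower at -2.17 ± 0.29 and -2.16 ± 0.50, and the aromatic aminotransferase *ARO9* had 737 and 455 CPM after heat shock against 87.3 and 97.7 CPM in the control (2.69 ± 0.40). Without the first heat shock library 2 genes of this list were called lower. In sulfur metabolism the methionine synthase *MET6* had 71.8 and 90.5 CPM after heat shock against 491 and 349.6 CPM in the control (log2 fold change -2.37 ± 0.36, edgeR adjusted p = 0.00243) and the ATP sulfurylase *MET3* rose by 1.65 ± 0.39.

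The transcription factors known to drive the stress response were not called for their own mRNA. *HSF1* had 87.1 and 86.1 CPM after heat shock against 70.04 and 37.1 CPM in the control (0.69 ± 0.34), *MSN2* 122 and 120.2 CPM after heat shock against 77.01 and 82.4 CPM in the control (0.60 ± 0.26) and *MSN4* 42.6 and 55.4 CPM after heat shock against 56.6 and 61.1 CPM in the control (-0.26 ± 0.27), and edgeR called none of them (adjusted p between 0.142 and 0.521). Higher were 6 of the 22 stress regulators, among them *USV1* with 8.39 and 9.28 CPM after heat shock against 0.674 and 0.995 CPM in the control (log2 fold change 3.43 ± 0.37, edgeR adjusted p = 0.000641), the coactivator *MBF1* with 2249 and 2319 CPM after heat shock against 194 and 267 CPM in the control (3.31 ± 0.51), the kinase *YAK1* (2.08 ± 0.34) and the repressor *XBP1* (1.28 ± 0.26). Of 12 growth regulators 3 were lower: besides *TOD6* these were *IFH1* and *FHL1*, the activators of ribosomal protein genes, at -1.38 ± 0.35 and -1.20 ± 0.35. *SFP1* had 81.3 and 87.2 CPM after heat shock against 112 and 70.98 CPM in the control and was not called. In the Ras and protein kinase A pathway the catalytic subunit *TPK2* had 109 and 122 CPM after heat shock against 36.3 and 35.4 CPM in the control (log2 fold change 1.69 ± 0.27, edgeR adjusted p = 0.00314), whereas *TPK3* was lower (-1.08 ± 0.30). *IRA2*, the GTPase activator that turns Ras off, had 459.6 and 274 CPM after heat shock against 62.2 and 42.98 CPM in the control (2.80 ± 0.40).

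Cell wall, cell cycle and lipid genes changed one by one. *SLT2*, the kinase of the cell integrity pathway, had 62.4 and 68.3 CPM after heat shock against 74.003 and 54.97 CPM in the control, and the kinase above it, *MKK1*, had 16.9 and 15.7 CPM after heat shock against 40.7 and 33.7 CPM in the control (-1.19 ± 0.27). In all 5 of 36 cell wall genes were higher (13.9%) and 2 lower (5.56%), against 10.5% and 13.1% of all genes tested. Among cyclins *CLB6* of S phase had 4.54 and 6.42 CPM after heat shock against 26.7 and 36.01 CPM in the control (log2 fold change -2.51 ± 0.33, edgeR adjusted p = 0.00122), and *CLN1* and *PCL1* of G1 were lower at -1.16 ± 0.26 and -1.48 ± 0.33, while *CLN3* and the inhibitor *SIC1* were not called. *PCL2*, also a cyclin of G1, was the only one of the 19 cell cycle genes higher, with 68.9 and 43.01 CPM after heat shock against 19.8 and 29.4 CPM in the control (log2 fold change 1.19 ± 0.34, edgeR adjusted p = 0.038), and 4 were lower. None of 11 histone genes was called in edgeR or in DESeq2, and 0 had an unadjusted p under 0.05 in edgeR. The fatty acid desaturase *OLE1* had 172 and 216 CPM after heat shock against 714 and 819 CPM in the control (log2 fold change -1.99 ± 0.39, edgeR adjusted p = 0.009). Of 25 ergosterol genes *ERG7* and *ERG3* were lower, at -1.87 ± 0.44 and -1.34 ± 0.35, a share of 8% against 13.1% of all genes tested. Of 24 sphingolipid genes 2 were higher (8.33%) and 4 lower (16.7%), near the 10.5% and 13.1% of all genes tested. The ceramidase *YDC1* had 1.83 ± 0.30 and *TSC10*, an early enzyme of the pathway, -1.42 ± 0.29. *THI7*, the thiamine transporter, had 5.998 and 7.98 CPM after heat shock against 255 and 102 CPM in the control (log2 fold change -4.67 ± 0.50, edgeR adjusted p = 0.000641).

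Markers of mating type and sporulation were used to see which cells the libraries held. The a-cell gene *STE2*, the receptor for α-factor, had 353 and 357 CPM after heat shock against 366 and 400.1 CPM in the control, while the α-cell genes *MF(ALPHA)1* and *STE3* had 3.57 and 3.74 CPM after heat shock against 3.03 and 3.70 CPM in the control and 3.16 and 2.48 CPM after heat shock against 5.31 and 5.07 CPM in the control. These levels are those of a cells and go against the mating type α that the study lists for this strain. None of the 4 α-cell or the 6 a-cell genes was called in edgeR or DESeq2; at an unadjusted p under 0.05 in edgeR there were 1 and 2. Among 11 meiosis genes *IME2*, a kinase of meiotic entry, had 113 and 56.2 CPM after heat shock against 9.58 and 5.45 CPM in the control (log2 fold change 3.49 ± 0.45, edgeR adjusted p = 0.0012) and *REC8* and *SPS4* changed by 1.12 ± 0.30 and -1.48 ± 0.35.

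The replicates differed more here than in the other species of the series, and this sets what can be called. The common dispersion of the edgeR fit was 0.0658, against 0.0112 in *S. cerevisiae* and 0.0272 in *Kluyveromyces marxianus*. Over the 5149 genes with at least 100 counts in each library, the log2 ratio of replicate 1 to replicate 2 had a standard deviation of 0.39 in the heat shock libraries and 0.63 in the control libraries, and 190 and 594 genes differed more than 2-fold. The 2 conditions differed in the kind of gene. After heat shock the genes highest in replicate 1 were *HSP12*, *HMX1*, *FMP45*, *CHA1* and *HSP26*, at ratios of 2.68 to 6.59, and the genes highest in replicate 2 were *RPS26B*, *RPL7B*, *RPL16A*, *SNU13* and *RPL27B*, at ratios of 4.52 to 5.71. Replicate 1 thus had more of several stress mRNAs and less of several ribosomal ones, as for *RPS26B* with 82.5 and 473 CPM after heat shock against 749.6 and 1584 CPM in the control.

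In the control the ratio between replicates followed gene length. Its Spearman correlation with length was 0.76 over the 5149 genes and 0.75 without ribosomal protein genes, as a description across genes of the same libraries, against -0.06 in the heat shock pair. Of 5 length classes of equal size the shortest, up to 684 bases, had a median log2 ratio of -0.72, and the longest, from 2169 bases, one of 0.68. The extremes were long genes in replicate 1, such as *CDC13* with 10.8 and 10.7 CPM after heat shock against 42.3 and 10.05 CPM in the control and *SEC16* with 49.1 and 55.6 CPM after heat shock against 152 and 41.3 CPM in the control, and mostly short genes in replicate 2, such as *TIR1* with 56.98 and 92.9 CPM after heat shock against 21.7 and 89.4 CPM in the control. For the longest class the heat shock mean lay at a median log2 ratio of -0.50 to control replicate 1 and 0.20 to control replicate 2, and for the shortest at 0.47 and -0.16. In *S. cerevisiae* the control pair had a correlation of -0.51 with a standard deviation of 0.25. Which of the control libraries is nearer to the cells, and what part RNA or library preparation has in this, was not tested.

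**Figure D4:**
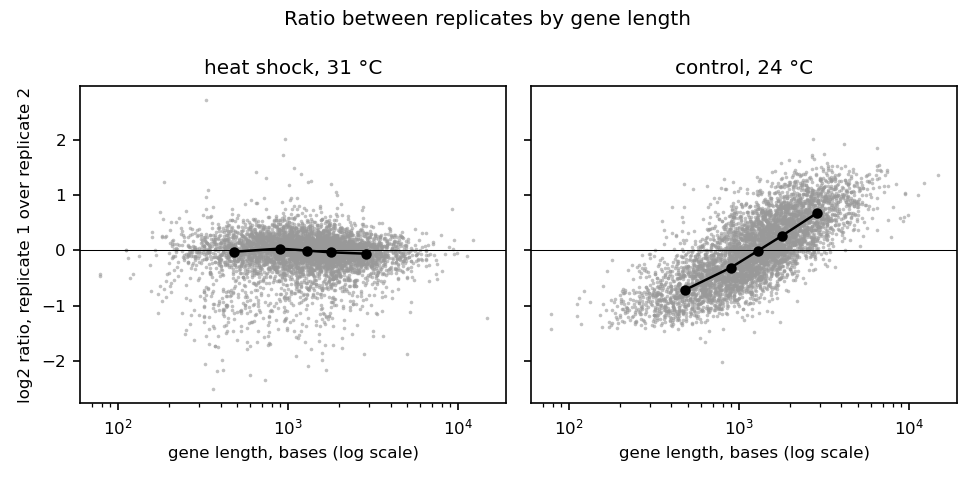
Log2 ratio of replicate 1 to replicate 2 against gene length in bases (log axis), for the heat shock libraries on the left and the control libraries on the right, with 1 grey point per gene and black points for the medians of 5 length classes. The medians stay between -0.06 and 0.03 after heat shock and run upwards from -0.72 to 0.68 in the control.

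A fit in which a smooth trend with length was removed from each library, added after the data had been seen, lowered the dispersion to 0.0395 and called 1002 genes higher (18.3%) and 1112 lower (20.3%). It kept 1288 of the 1292 genes called without it. Under this fit 31 ribosomal protein genes and 20 translation factors were called lower and 32 proteasome genes higher, and the numbers of calls in the chaperone and ribosome assembly lists did not drop.

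The same contrast in *S. cerevisiae* BY4742, an α-type laboratory strain held at 40 °C against 33 °C, was used to find genes for which the response of *S. kudriavzevii* was of a different size. The study lists BY4742 with deletions in *URA3*, *LEU2*, *HIS3* and *LYS2*. The step had the same size in both species but lay at different temperatures, so species, strain genotype and temperature cannot be told apart. The interaction term used 1 dispersion per gene for both species. Replicates of *S. kudriavzevii* spread more than those of *S. cerevisiae*, at common dispersions of 0.0658 and 0.0112 when fitted apart. The SE of a difference can thus be too small, and the calls too many. For *HSP42* that SE was 0.51, under the 0.73 of the *S. kudriavzevii* change alone, whereas *MRD1* had 0.56 against 0.53. These values were derived from the F statistics of effects of unlike size. They are not directly comparable and do not show how far the SE is too small. The term was tested for 4932 orthologs. The response was above that of *S. cerevisiae* for 155 (3.14%) and below it for 279 (5.66%). These counts depend on the libraries: with the second control library of *S. kudriavzevii* left out they were 1184 and 1078, and with its first heat shock library left out 45 and 37.

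Chaperones and aggregate handlers were prominent among the genes that rose further in *S. kudriavzevii*. All 3 of *HSP42*, *HSP26* and *HSP104* were above, by 4.01 ± 0.51, 3.60 ± 0.88 and 2.40 ± 0.49. *HSP42* had 5459 and 4699 CPM in heat-shocked *S. kudriavzevii*, against 9.95 and 14.03 CPM in its control, and 2283 and 2525 CPM in heat-shocked *S. cerevisiae*, against 106 and 69.2 CPM in its control. Scaled within each species, the control level was thus the lower one in *S. kudriavzevii*. *SSA4*, *BTN2*, *EGO4* and *OPI10* were above by 3.07 ± 0.55, 3.13 ± 0.42, 3.36 ± 0.78 and 3.13 ± 0.36, and *HSP82* by 2.08 ± 0.49. Of the Hsp70 list 5 of 19 genes were above and none below. No proteasome, trehalose or glycolysis gene differed at an adjusted p under 0.05 in edgeR, the one tool run for this term, and 4 of 33, 2 of 9 and 3 of 22 did at an unadjusted p under 0.05.

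Falls were deeper for part of the ribosome assembly genes, with 15 of 58 small subunit and 22 of 72 large subunit genes below and none above. *NSR1* differed by -2.96 ± 0.64, *MRD1* by -2.62 ± 0.56 and *RNT1* by -3.31 ± 0.53. Of the 128 ribosomal protein genes 4 were above and 1 below. Their median log2 fold change was -0.97 in *S. kudriavzevii* and -2.75 in *S. cerevisiae*. At an unadjusted p under 0.05 in edgeR 90 of the 128 differed, so the few calls do not mean that these genes responded alike.

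Several genes rose in *S. cerevisiae* and were not called in *S. kudriavzevii*. *GND2*, a minor dehydrogenase of the pentose phosphate pathway, had 15.7 and 11.2 CPM in heat-shocked *S. kudriavzevii*, against 8.04 and 6.92 CPM in its control, and 506 and 496 CPM in heat-shocked *S. cerevisiae*, against 17.9 and 9.72 CPM in its control, a difference of -4.28 ± 0.44. *TMA10* stayed near 1 CPM in all 4 *S. kudriavzevii* libraries and differed by -4.91 ± 0.77. *SIP4* and *OSW1* were low in *S. kudriavzevii* too, at or below 3.29 CPM, and differed by -4.15 ± 0.41 and -4.79 ± 0.77; *OSW1* was below 1 CPM in every library of both species. *SLT2* differed by -1.99 ± 0.28. *THI7* went the other way around: it fell in *S. kudriavzevii* and had a log2 fold change of -0.02 in *S. cerevisiae*, a difference of -4.58 ± 0.55. The α-factor genes *MF(ALPHA)1* and *MF(ALPHA)2* differed by 4.52 ± 0.35 and 3.75 ± 0.26 through a fall in *S. cerevisiae*; in *S. kudriavzevii* they stayed below 10 CPM, and the cells expressed a-type markers, so that mating type and species cannot be told apart for them.

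**Figure D5:**
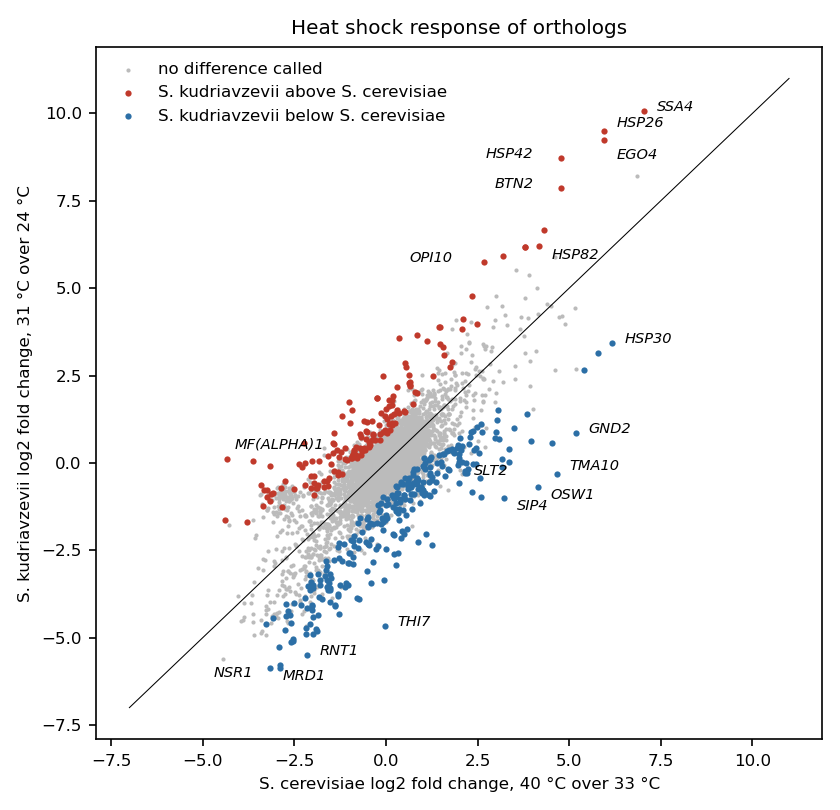
Log2 fold change after heat shock in *S. kudriavzevii* (vertical axis, 31 °C over 24 °C) against that in *S. cerevisiae* (horizontal axis, 40 °C over 33 °C), 1 point per ortholog, with the line of equal change. Red points (155) lie above and blue points (279) below *S. cerevisiae* in the interaction test, and *SSA4*, *HSP26*, *EGO4*, *HSP42* and *BTN2* form the upper end.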

How the data were processed

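The authors trimmed reads with Trim Galore 0.6.10, aligned them with STAR 2.7.10b (to the ZP591 assembly for *S. kudriavzevii* and to R64 for *S. cerevisiae*) and counted uniquely placed reads on coding sequences with HTSeq 2.0.2 without using strand. Per the labels they deposited whole read counts per gene, which were used as deposited; overlapping genes on opposite strands and near-identical paralogs can therefore not be told apart. The 5 tally rows of each table name no gene and stayed out of library sizes and tests. Together they held 4.01% to 4.77% of reads in the 4 libraries. Within that share, 1.70% to 1.96% of all reads were not unique and 0.168% to 0.176% were ambiguous. A deposited table of values per length was used for the gene length column alone.

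Gene names were assigned by aligning the order and length of the 5549 loci with a RefSeq gene table of *S. kudriavzevii* IFO1802; 5469 paired, and 4935 whose length was within 10% of the *S. cerevisiae* gene of that name were named.

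Counts were tested with edgeR 4.0.16 (filterByExpr, TMM, quasi-likelihood F test, Benjamini-Hochberg adjustment over all genes tested; R 4.3.3), heat shock against control with no covariate, within the 4 libraries; *S. cerevisiae* entered only the interaction term, fitted on 8 libraries in 1 model. The script was tested on simulated counts. It recovered 24.2% of the genes with a simulated log2 change of 1 in either direction and 94.0% of those with 2. Of 5485 genes, 66 were changed by 1, 67 by 2 and 67 by 3, whereas 23.5% of genes were called in the data. Each gene was drawn independently, without the length trend or shifts common to many genes. These shares need not hold for the data. A gene that was not called may therefore still have changed. DESeq2 1.42.0, other scalings and filters, a replicate block and the removal of each library were alternatives, and length-trend fits were added after seeing the data. Ratios between replicates used a pseudocount of 0.5 CPM. Named in the text were the 15 largest rises and falls, core members and up to 4 called members per direction of 48 gene lists with any member against the list's direction, the 5 most uneven genes between replicates and the 5 largest differences between species; *SKDZ_10G0710*, *HOR7* and the mating-type markers were added after their values were seen. The members and lists were chosen with earlier results of these data known. With 2 replicates per condition no single-gene permutation test can pass a threshold of 0.05. Results for 2 genes that this rule names are not reported here.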

Additional observations from a re-analysis of the deposited data

Results flagged for a closer look

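Genes with the largest changes, core genes of the lists and genes named for the largest differences between species were looked at here. Of these, 36 had a heat shock effect that differed between *S. kudriavzevii* and *S. cerevisiae* in the interaction test (edgeR adjusted p under 0.05 over 4932 orthologs). The genes named for that difference were chosen by the same test, so their call follows from the choice. *GND2*, *OSW1*, *MF(ALPHA)1* and *MF(ALPHA)2* are among those named for it alone. Values are the log2 fold change of *S. kudriavzevii* minus that of *S. cerevisiae*. Chaperones and their partners were above 0: *SSA4* 3.07, *SSA1* 2.80, *SSE2* 2.46, *FES1* 2.51, *HSP42* 4.01, *HSP26* 3.60, *HSP104* 2.40, *HSP82* 2.08, *HSP78* 2.43, *ERO1* 1.54 and *BTN2* 3.13. The same held for the other induced genes *EGO4* 3.36, *OPI10* 3.13, *RPN4* 1.99 and *MBF1* 1.81. Less negative log2 fold changes in *S. kudriavzevii* gave positive differences for *SSB2* 2.12 and *CLN2* 1.39. The α-factor genes, at *MF(ALPHA)1* 4.52 and *MF(ALPHA)2* 3.75, are expressed at under 10 CPM in the *S. kudriavzevii* libraries.

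Below 0 were genes of ribosome production and its control that fell further in *S. kudriavzevii*, *NSR1* -2.96, *MRD1* -2.62, *RNT1* -3.31, *FAF1* -2.28, *IMP4* -2.63, *RRS1* -2.50, *NOG2* -2.44 and *TOD6* -2.47, with *THI7* -4.58, *GFD2* -2.83 and *RFU1* -2.86 outside that group. Genes that rose in *S. cerevisiae* with a smaller or negative log2 value in *S. kudriavzevii* were *TMA10* -4.91, *OSW1* -4.79, *GND2* -4.28, *SIP4* -4.15, *HSP30* -2.70 and *SLT2* -1.99. No group held enough libraries to look for a single library that stands apart by a gap test.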

How the results depend on the processing

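The counts of 575 genes higher and 717 lower became 604 and 745 with RLE factors, 572 and 716 without a filter, 573 and 717 with at least 10 counts in every library, and 714 and 890 in DESeq2. With library totals 275 genes were higher and 641 lower, 30.0% higher of those called against 44.5%. With a library left out they ranged from 247 to 1153 and from 345 to 1296, lowest without the first heat shock library and highest without the second control library; 1 residual degree of freedom then remains and the lone library is assumed to vary like the other group. Removing the length trend from each library gave 1002 and 1112, and removing it within each condition 1025 and 1158. For the interaction, 155 above and 279 below became 53 and 205 with library totals, 45 to 1184 and 37 to 1078 with a *S. kudriavzevii* library left out, and 507 and 599 with the length trend removed. The replicate numbers were not treated as pairing the samples, since the deviations of same-numbered libraries correlated at 0.06 over the genes tested and there are 2 pairs; with a replicate block 681 genes were higher and 886 lower, 205 and 188 in the interaction, and 65 of the 128 ribosomal protein genes were lower in place of 3.

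Over the named genes and alternatives, 2468 of 2735 values kept direction and call, 186 lost the call and 62 gained it. The 19 reversals were of genes with no call. With a library left out the log2 fold changes of the reversed genes ranged as follows: *CDC13* from -1.95 to 0.10, *DED1* from -0.88 to 0.24, *GPB1* from -1.10 to 0.66, *HXK2* from -0.044 to 0.26, *MF(ALPHA)1* from -0.0088 to 0.30, *MF(ALPHA)2* from -0.024 to 0.16, *RPS26A* from -1.004 to 0.49, *SEC16* from -1.50 to 0.35, *SFP1* from -0.38 to 0.25, *SLT2* from -0.14 to 0.26, *TIR1* from -0.25 to 1.82 and *TMA10* from -0.80 to 0.33. Reversed were also *HXK2* -0.14, *MF(ALPHA)1* -0.13, *MF(ALPHA)2* -0.21 and *SLT2* -0.28 with library totals, and *MF(ALPHA)2* -0.098 and *SFP1* 0.0068 with the length trend removed. The cause of these changes was not tested. Of the list medians none of a list mostly called changed sign. Of 1248 list counts 1019 stayed within 1.5 times. At 22201483 to 28644781 reads 59 genes were too low to be tested.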
